A study of Mus musculus with 21 samples.

Results

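This comparison asked how a single amino acid change in CREB1, alanine to valine at the residue named in CREB1(A297V), altered which DNA sequences the protein preferred when cytosine was replaced by 5-hydroxymethylcytosine (5hmC). It used 6 of the 21 protein binding microarrays of the series, all those labelled as 5hmC for either protein: 4 arrays of CREB1(A297V) and 2 of CREB1. Both were mouse DNA-binding domains of the bZIP class, carrying an N-terminal GST tag, expressed from plasmids by in vitro transcription and translation and read out with Cy5. The arrays of 5hmC were made double-stranded by primer extension with 5hmC in place of cytosine, which put 5hmC on the synthesised strand and left ordinary cytosine on the printed one. A further 2 arrays of each protein on unmodified C served for the interaction, and the other 11 arrays entered the fit for the spread alone. The domains were studied outside the full-length protein and without a partner protein, on short array DNA. The labels do not say whether each array had its own protein preparation. Each p-value therefore measures the spread between these arrays, which may be technical.

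CREB1 is the transcription factor that binds the cAMP-response element (CRE). A bZIP protein binds as a dimer, with a leucine zipper holding 2 helices together and the basic region of each helix reading one side of the site. Members of the class differ in the side they prefer: CREB1 reads the CRE side gtCa, the C/EBP factors read gCaa, and the PAR factors, such as DBP, HLF and TEF, are known for sites built from gtaa. 5hmC is made from 5-methylcytosine by the TET enzymes and is abundant in neurons.

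The sequences compared most closely are the 11 sites below, which join these sides in every combination around a central Cg, and the composite site in which a CRE side meets a C/EBP side through tg. They are printed 5′ to 3′ as the synthesised strand, and every capital C marks a base that was 5hmC on these arrays.
CRE palindrome: tgaCgtCa
CRE left, C/EBP right: tgaCgCaa
CRE left, PAR right: tgaCgtaa
C/EBP left, CRE right: ttgCgtCa
C/EBP palindrome: ttgCgCaa
C/EBP left, PAR right: ttgCgtaa
PAR left, CRE right: ttaCgtCa
PAR left, C/EBP right: ttaCgCaa
PAR palindrome: ttaCgtaa
Composite: tgatgCaa
Composite, other strand: ttgCatCa
A site and its reverse complement are different DNA here, because the capitals fall on other positions when the strand that carries 5hmC is exchanged. The reading assumes that the printed sequence was the template of the extension. The Z-scores recomputed from the spots correlated with the deposited ones at 0.603 to 0.986 over the 21 arrays under this reading of the spot sequences, and at 0.105 to 0.818 under the reverse complement. Which strand was the template was not tested. If it were the other strand, each 8-mer would stand for its reverse complement.

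The measure was the deposited Z-score of each 8-mer, a score per array of how bright the spots carrying that 8-mer were. It was not scaled between arrays, so it gives relative preference within an array and not affinity, and ranks within each array are given beside it. The arrays of the proteins differed in quality. The median spot was at 1407 and 1545 on the CREB1 arrays, with a median local background of 266 and 264. On CREB1(A297V) replicates 1 to 4 the median spot was at 1399, 1673, 76 and 288, against a background of 1073, 1743, 68 and 117.5. Replicate 2 was the weakest by this measure, with 43.9% of its spots above their background, and replicates 1 and 3 had 74.9% and 73.9%. The Z-score exceeded by 1 in 1000 8-mers was 20.4 and 25.4 with CREB1 and between 6.69 and 9.27 with CREB1(A297V). Across 64511 8-mers with 8 spots or more, the CREB1 arrays correlated with each other at a Pearson r of 0.961, the CREB1(A297V) arrays among themselves at 0.333 to 0.606, and arrays of the different proteins at 0.215 to 0.376. Of the CREB1(A297V) arrays replicate 4 was the nearest to CREB1, with an r of 0.376 and 0.354. Its r with CREB1(A297V) replicates 1, 2 and 3 was 0.333, 0.507 and 0.606. Both CREB1 arrays carried 1 array number, the CREB1(A297V) arrays 3 others. Array number and protein therefore cannot be told apart without assuming the random block given below. The arrays on C carried 1 array number for both proteins. CREB1(A297V) replicates 1 and 2 on 5hmC carried that number too, and CREB1 on 5hmC did not. The interaction with C is therefore also confounded with array number.

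Of 65535 8-mers, 5745 (8.77%) differed between the proteins at an adjusted p under 0.05 (limma, fitted over all 21 arrays, Benjamini-Hochberg adjustment). CREB1(A297V) was lower in 4079 of them (6.22% of all) and higher in 1666 (2.54%). Losses were larger than gains on the Z scale. The difference reached 5 Z in 484 of the lower 8-mers and in 11 of the higher ones, with medians of -2.20 and 1.70. The range of that scale differed between the proteins: the highest mean was 156 with CREB1 and 21.7 with CREB1(A297V). Its part in the sizes of losses and gains was not tested. The lower 8-mers held the CRE side tgaC in 12.4% and the C/EBP side gCaa in 7.33%. They held the reverse complements gtCa and ttgC in 3.29% and 1.79%. Each of these was in 1.95% of all 8-mers. Among the higher 8-mers the shares of the PAR side were 3.72% for gtaa and 5.04% for its reverse complement ttaC. Of the higher 8-mers 21.7% had no C at all on the synthesised strand, against 11.3% of the lower ones and 10.0% of all 8-mers. The mean number of C was 1.54 in the higher, 1.73 in the lower and 2 in all. Cg was held by 22.9% of the higher and 46.3% of the lower 8-mers, against 38.1% of all. The groups did not overlap in 4076 of the lower and in 1666 of the higher 8-mers, and in 20290 of all 8-mers.

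**Figure D1:**
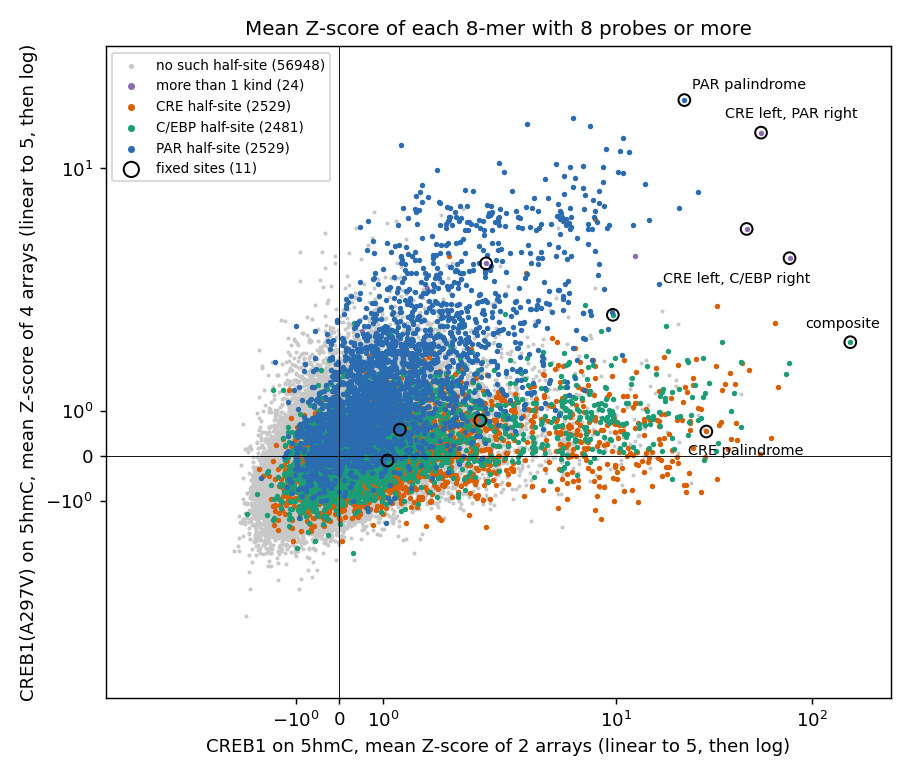
Mean Z-score on 5hmC of each 8-mer with 8 spots or more, with CREB1 (2 arrays) on the x axis and CREB1(A297V) (4 arrays) on the y axis, both linear to 5 and logarithmic beyond. Colours mark 8-mers that hold a CRE, C/EBP or PAR half-site on either strand, and black rings the 11 fixed sites. PAR points reach up to 21.7 on the y axis, while CRE and C/EBP points spread to the right along a y value near 0, as far as the composite site at 156 with CREB1 and 2.51 with CREB1(A297V).

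How many 8-mers were called, and how they split, moved with the model. With array number as a random block 1290 were called, 110 higher and 1180 lower, and the fit of the 6 arrays alone called 1396, 42 higher and 1354 lower. Without CREB1 replicate 1 the count was 1397, without CREB1 replicate 2 it was 1178, without CREB1(A297V) replicate 4 it was 9012, and without CREB1(A297V) replicates 2 and 3, whose spots were the least often above background, it was 3274. The excess of lower over higher calls depended on the scale as well: dividing each array by its 1 in 1000 Z-score gave 1231 higher and 1443 lower, ranks gave 3214 and 3617, and Z-scores recomputed from the spots 4020 and 5455.

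The composite site showed the largest difference of any 8-mer with 8 spots or more. The Z-score of tgatgCaa was 141 and 171 on the CREB1 arrays, where it ranked first of all 8-mers on both. It was 3.30, 2.27, 0.281 and 4.21 on CREB1(A297V) replicates 1 to 4, at ranks 1011, 2117, 25094 and 331. It fell by 153.5 (SE 7.52, adjusted p = 8.9e-08, limma), with 156 ± 20.7 (SD, n = 2) against 2.51 ± 1.69 (SD, n = 4). On unmodified C the same 8-mer was low with both proteins, at 2.90 ± 1.71 with CREB1 and 2.37 ± 0.403 with CREB1(A297V) (SD, n = 2 each). The difference between the proteins on 5hmC less that on C was -153 (SE 11.5, adjusted p = 7.2e-05, limma). A robust estimate of the spread across 8-mers ended the call of the difference on 5hmC (adjusted p = 0.26), without changing its size.

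The site with a CRE side on the left and a C/EBP side on the right was the second of these losses among the fixed sites. tgaCgCaa was at 70.1 and 82.8 with CREB1 and at 5.50, 4.41, 4.27 and 3.30 with CREB1(A297V), which ranked it 155 to 704. It fell by 72.1 (SE 7.90, adjusted p = 7.5e-05, limma), a call that the robust estimate also ended (adjusted p = 0.43). Unlike the composite, this site was bound on C too, with 18.6 ± 2.55 for CREB1 and 6.95 ± 1.45 for CREB1(A297V). Its interaction with C was -60.4 (adjusted p = 0.034, limma), and leaving out single arrays moved that adjusted p to as much as 0.26. The 2 called sites were both lower with CREB1(A297V); the other 9 of the 11 fixed sites were not called.

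Of those 9, several had groups far apart. The PAR and C/EBP hybrid ttaCgCaa was at 48.3 and 44.2 with CREB1 and between 3.74 and 6.06 with CREB1(A297V), a difference of -41.2 with an SE of 17.9 (adjusted p = 0.17, limma). In the fit of the 6 arrays alone, whose spread leaves out the other proteins and the other cytosine forms, it had an adjusted p of 0.002 (limma). The C/EBP palindrome ttgCgCaa was at 8.85 and 10.4 against 2.93, 1.41, 1.41 and 6.73, which did not overlap either (difference -6.49, SE 6.97). ttgCgtCa and ttaCgtCa, which end in a CRE side after a C/EBP or PAR side, and ttgCatCa, the other strand of the composite, were low with both proteins, at most 3.49 on any array.

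The CRE palindrome, the defining CREB1 site, was at 19.1 and 38.5 with CREB1 and at 0.558, 0.534, -0.337 and 1.41 with CREB1(A297V). Its ranks with CREB1(A297V) ran from 6887 to 39558, inside the bulk of all 8-mers, against 82 and 22 with CREB1. The groups did not overlap, but the difference of -28.3 had an SE of 10.7 and was not called (adjusted p = 0.12, limma; 0.039 in the fit of the 6 arrays alone). On unmodified C tgaCgtCa was at 195 ± 24.9 with CREB1 and 23.1 ± 0.249 with CREB1(A297V) (SD, n = 2 each). CREB1(A297V) therefore had this site well above its median 8-mer on C and not on 5hmC. The difference between the proteins was smaller on 5hmC than on C by 143.7 (SE 16.3, adjusted p = 6.7e-04, limma). That interaction is on the Z scale: on an asinh scale it was -1.40 and not called (adjusted p = 0.66), and the call also ended after dividing by the 1 in 1000 Z-score or quantile normalization.

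**Figure D2:**
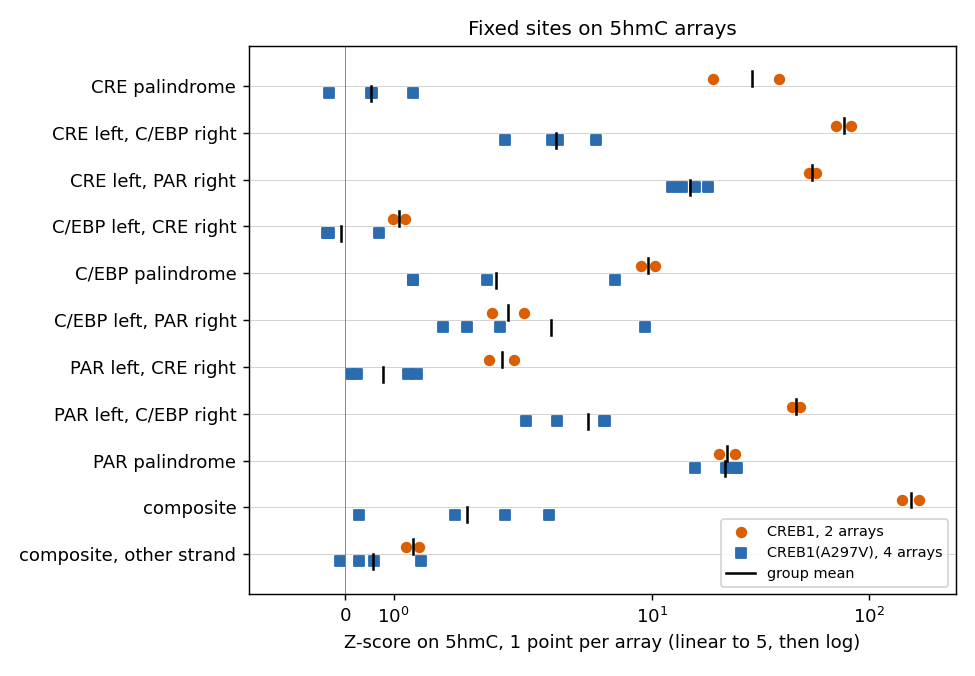
Z-score of the 11 fixed sites on each 5hmC array, on an axis that is linear to 5 and logarithmic beyond. Circles are the 2 CREB1 arrays, squares the 4 CREB1(A297V) arrays and black ticks the group means; the groups overlap at the PAR palindrome, at C/EBP left with PAR right and at the composite's other strand, and at no other site.

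PAR sites were the highest with CREB1(A297V). The PAR palindrome ttaCgtaa was its highest 8-mer by mean, at 15.7, 21.9, 24.7 and 24.3, ranks 1, 2, 2 and 3. With CREB1 it was at 20.3 and 24.2, but at ranks 70 and 72. The difference was -0.57 with an SE of 7.01 (adjusted p = 0.98, limma), an error too wide to show that the proteins act alike. The direction turned with the scale: ranks put the site higher with CREB1(A297V) (adjusted p = 6.7e-04), as did quantile normalization (adjusted p = 2.2e-04), and dividing by the 1 in 1000 Z-score also gave a positive difference, which was not called. The hybrid of a CRE side and a PAR side, tgaCgtaa, was at 52.6 and 56.8 with CREB1 and at 12.4, 15.8, 18.0 and 13.8 with CREB1(A297V). The groups did not overlap on the Z scale and the difference was -39.7, with an SE of 24.3 (adjusted p = 0.34, limma; 0.004 in the fit of the 6 arrays alone). Its median rank was 8.5 with CREB1 and 9 with CREB1(A297V). A further hybrid, ttgCgtaa, was at 3.69 and 3.05 with CREB1 and at 3.20, 2.52, 2.02 and 9.29 with CREB1(A297V), where replicate 4 stood apart.

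The 8 highest 8-mers of CREB1(A297V), after skipping near copies, all carried a PAR side: besides the palindrome and tgaCgtaa they were ttaggtaa (17.8), atgtgtaa (16.6), ttatgtaa (14.1), tgagtaat (12.5), gtgtaatC (12.2) and tgaggtaa (12.1). Of these, 5 had no C on the synthesised strand and so no 5hmC in the 8-mer. With CREB1 the same 5 were at 4.31 for atgtgtaa, 6.04 for ttaggtaa, 8.84 for tgagtaat, 10.9 for ttatgtaa and 11.6 for tgaggtaa. The 8 highest of CREB1 were, after tgatgCaa and tgaCgCaa, aCgCaata (75.6), gatgaCgC (67.1), tgaCgtaa (54.7), ttaCgCaa (46.2), atgCaata (43.5) and tatgaCgt (40.5). The last of these was at 41.9 and 39.1 with CREB1 and between 0.817 and 3.15 with CREB1(A297V), which was not called in the shared fit (adjusted p = 0.13, limma) and had an adjusted p of 0.008 on ranks. Among the 100 highest 8-mers of each protein, 4 were shared, 4% of each list. The 100 of CREB1(A297V) held gtaa in 63, gCaa in 0 and tgaC in 2, and 41 of them had no C, 38 of these with gtaa. Those of CREB1 held tgaC in 51, gCaa in 35 and gtaa in 4, and 67 held Cg against 14 with CREB1(A297V).

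The 10 largest called falls, chosen by size, were all built from the CRE side or the C/EBP side. After the sites above, aCgCaata fell by 73.6, from 68.1 and 83.1 to between 0.731 and 3.21. gatgaCgC fell by 65.6 (adjusted p = 1.4e-05), from 65.7 and 68.6 to between 0.746 and 2.67. Its 5 bases tgaCg recur in gtgaCgta (difference -41.7), CgtgaCgC (-36.9), ttatgaCg (-34.3) and tggtgaCg (-33.0). The others were atgCaata (-41.4) and CtaCgCaa (-32.2). In every case the highest CREB1(A297V) array was under 6 and the lowest CREB1 array over 26. On unmodified C the 8-mers with tgaCg were also lower with CREB1(A297V). The differences in mean there were -95.65 for gtgaCgta, -32.1 for gatgaCgC, -30.6 for CgtgaCgC, -27.5 for tggtgaCg and -9.71 for ttatgaCg. They were -3.345 for aCgCaata, -2.43 for CtaCgCaa and 0.754 for atgCaata. The calls of gtgaCgta and CtaCgCaa were lost without either CREB1 array, without CREB1(A297V) replicate 2, and without its replicates 2 and 3 together, with adjusted p up to 0.33 over the arrays left out. The robust estimate of the spread left 5 of the 10 called.

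The largest rises were smaller on the Z scale and of a different make-up. atgtgtaa rose by 12.3 (SE 1.94, adjusted p = 0.0016, limma), from 4.80 and 3.81 to 14.6, 20.2, 16.6 and 14.8. ttaggtaa rose by 11.7 (SE 2.80, adjusted p = 0.020), from 6.00 and 6.07 to 14.2, 25.4, 16.9 and 14.5. At either site all 4 CREB1(A297V) arrays lay above both CREB1 arrays, which the choice of rises required. Both sites were also higher on unmodified C, at 12.9 and 13.0 against 0.741 and 0.578. attaCaCt rose by 6.41, aaattaCa by 5.79, atttgtaa by 5.59, atattaCa by 4.92 and ttaagtaa by 4.89, each with gtaa or its reverse complement. The remaining rises, aaagaaaa (5.39), aaaaagaa (5.31) and aaaaCaaa (4.89), hold none of these sides. On C they were at 6.04, 8.01 and 5.71 with CREB1(A297V) and at 5.75, 7.58 and 6.71 with CREB1. None of the 10 rises was called in the fit of the 6 arrays alone (adjusted p 0.055 to 0.18), and 3 of 10 were called with the random block or without either CREB1 array.

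Lists of 64 8-mers that end in a 5-base sequence, or start with its reverse complement, showed on which strand of each side the calls lay. Of the 64 that start with tgaCg, 47 (73.4%) were called lower and 0 higher, with a median difference of -6.46 and medians of 6.94 with CREB1 and 0.0675 with CREB1(A297V). The reverse complements, which end in CgtCa, were not called in any of 64 in this fit, whose spread also comes from the arrays on C. They were called in 5 in the fit of the 6 arrays alone, and in at most 11 under any of the 21 alternatives. The median difference of this list was still below 0, at -0.562. In it 54 of 64 differences were below 0, against 32891 of 65535 over all 8-mers. The median of the list ending in CgtCa with CREB1 was 0.463, against 5.72 on C. On C the list starting with tgaCg also differed between the proteins, with medians of 7.25 with CREB1 and 1.235 with CREB1(A297V). In that list 2 of 64 interactions with C were called positive and 8 negative. The C/EBP side showed the reverse arrangement. Of the 64 ending in tgCaa, 35 were called lower (median -2.86, from 3.24 to 0.600), and of their reverse complements, which start with ttgCa, 9 were. On C the list ending in tgCaa was low with both proteins, at 0.480 with CREB1 and 0.596 with CREB1(A297V). After Cg the counts were 15 lower for the 64 ending in CgCaa and 2 for those starting with ttgCg. A CRE side next to other bases gave 25 lower of 64 for tgaCa, 20 for tgaCt and 5 for tgaCC. Here the strands were less far apart in count than for tgaCg. The list ending in tgtCa, the reverse complement of tgaCa, had 15 lower. That ending in agtCa, the reverse complement of tgaCt, had 7 lower and 1 higher. The list ending in ggtCa, the reverse complement of tgaCC, had 3 lower. After dividing by the 1 in 1000 Z-score tgaCa had 2 lower and tgaCt 5, and without CREB1 replicate 2 they had 9 and 4. The list starting with tgaCg had 30 lower without CREB1 replicate 2. That ending in tgCaa had 23 without CREB1 replicate 1, 13 without replicate 2 and 11 after the division. These counts stand against 6.22% lower over all 8-mers, or a median difference of -0.0043.

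**Figure D3:**
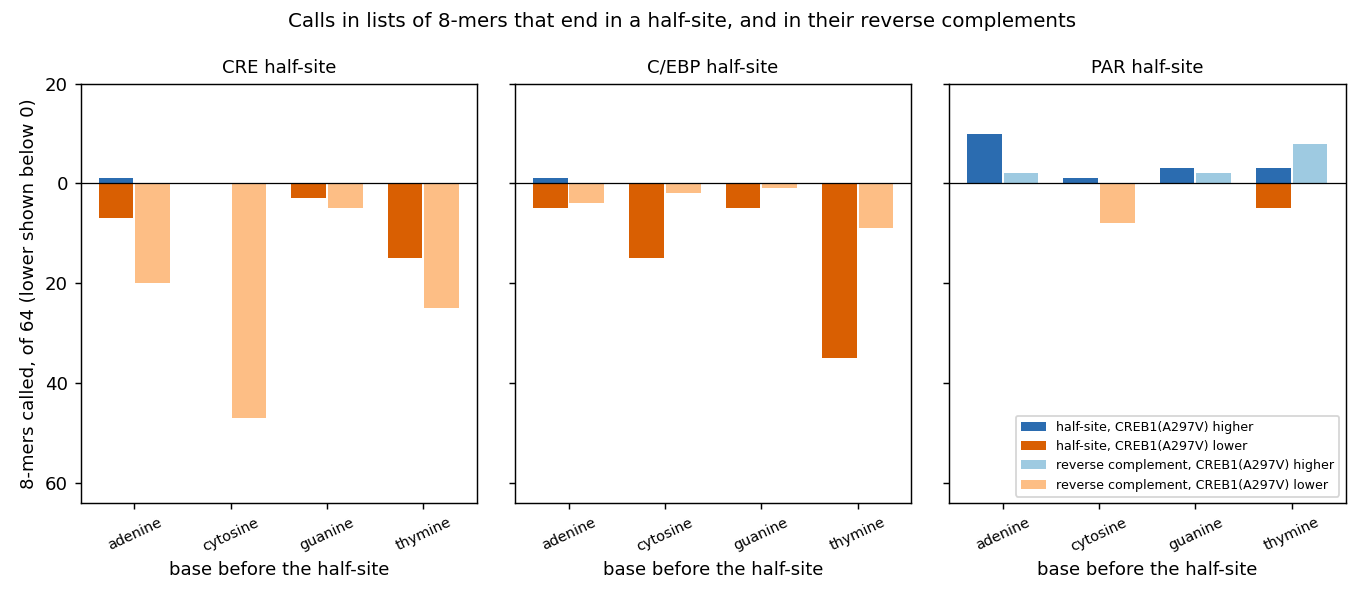
Number of 8-mers called in lists of 64 that end in a CRE, C/EBP or PAR half-site (dark bars) or start with its reverse complement (light bars), by the base before the half-site. Bars above 0 count 8-mers higher with CREB1(A297V) and bars below 0 those that were lower. The longest lower bars are 47 for the CRE reverse complement with cytosine and 35 for the C/EBP half-site with thymine; the longest higher bar is 10 for the PAR half-site with adenine.

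The PAR lists held fewer calls, more of them higher than lower. Of the 64 8-mers ending in agtaa, 10 were higher and 0 lower (median 1.09, from 0.733 to 1.77), and of those starting with ttaCa 8 were higher and 0 lower (median 0.862, from 1.09 to 1.91). Their medians were above 0 in the shared fit and under all 21 alternatives, but with the random block 0 and 1 were called. The list ending in ggtaa had 3 higher, and that ending in tgtaa 3 higher and 5 lower. After dividing each array by its 1 in 1000 Z-score, tgtaa had 22 higher and 0 lower, agtaa 17 higher and ttaCa 24 higher. Without CREB1 replicate 1, agtaa had 1 and ttaCa 0 higher, and without CREB1 replicate 2 they had 0 and 2. Over all 8-mers 2.54% were higher and 6.22% lower, and the counts for ggtaa and Cgtaa were near that share. Next to a central Cg the PAR lists had 1 higher of 64 ending in Cgtaa and 8 lower of 64 starting with ttaCg, both lists whose medians changed sign among the alternatives. Lists of sites of other families were counted in the same way. Of 48 8-mers with the E-box CaCgtg, which bHLH factors bind, 34 were lower and 0 higher, with medians of 2.29 and 0.0262. On C the medians of this list were 3.11 with CREB1 and 0.572 with CREB1(A297V). Under the alternatives its lower count ran from 6 to 38, with 17 and 10 without CREB1 replicates 1 and 2 in turn, and its median was below 0 in each. The AP-1 list had 4 lower of 16, and 0 without CREB1 replicate 2. Of 95 8-mers with the ETS core, 11 were higher and 1 lower, which became 2 and 3 after the division and 1 and 1 with the random block or without either CREB1 array. Its median was -0.881 with CREB1 and -0.126 with CREB1(A297V), both below the median 8-mer.

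Without replicates 2 and 3 of CREB1(A297V), the list starting with tgaCg had 40 lower, that ending in tgCaa 26, the E-box list 23, and the lists ending in agtaa and starting with ttaCa 5 and 4 higher. With the random block the first 3 of these had 35, 18 and 14 lower. Of the 144 8-mers that combine a CRE, C/EBP or PAR outer triplet on each side with any 2 central bases, 12 were called lower and 4 higher, shares of 8.33% and 2.78% that lay near those over all 8-mers (6.22% and 2.54%). With tga on the left and Caa on the right, 8 of 16 were lower, among them tgaggCaa, at 10.7 with CREB1 and 0.710 with CREB1(A297V). tgatgtaa, the composite with a PAR side on the right, fell from 26.1 to 7.67 (adjusted p = 0.005, limma). With tta on the left and taa on the right, 2 of 16 were higher and 0 lower.

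The difference between the proteins on 5hmC was set against that on C for every 8-mer, and 466 (0.711%) had a called interaction, 125 of them positive and 341 negative. Of these, 82 negative and 1 positive fell among the 6560 8-mers with no C on the synthesised strand, which hold no 5hmC. The source of those interactions was not tested. The largest positive ones hold the CRE side in the order CgtCa, which was high with CREB1 on C. Besides the palindrome, taCgtCaC was at 99.7 with CREB1 on C and at 2.78 and 1.96 on 5hmC, with CREB1(A297V) at 8.30 on C and between -1.04 and 1.74 on 5hmC (interaction 89.2, adjusted p = 0.0019). CaCgtCat (42.2), aCgtCaga (27.4) and CgCgtCat (27.4) followed. In the list that ends in CgtCa, 21 of 64 had a positive called interaction and 0 a negative one. The largest negative ones hold the C/EBP side gCaa or tgaCg: tgatgCaa, aCgCaata (-70.2), tgaCgCaa (-60.4), CgatgaCg (-43.5) and atgCaata (-42.2). atgCaata was at 39.9 and 47.1 with CREB1 on 5hmC and at -0.298 on C, and with CREB1(A297V) its means were 2.07 and 0.456. An interaction here is a difference of Z-scores whose range differs between arrays, and 41 were called on an asinh scale.

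**Figure D4:**
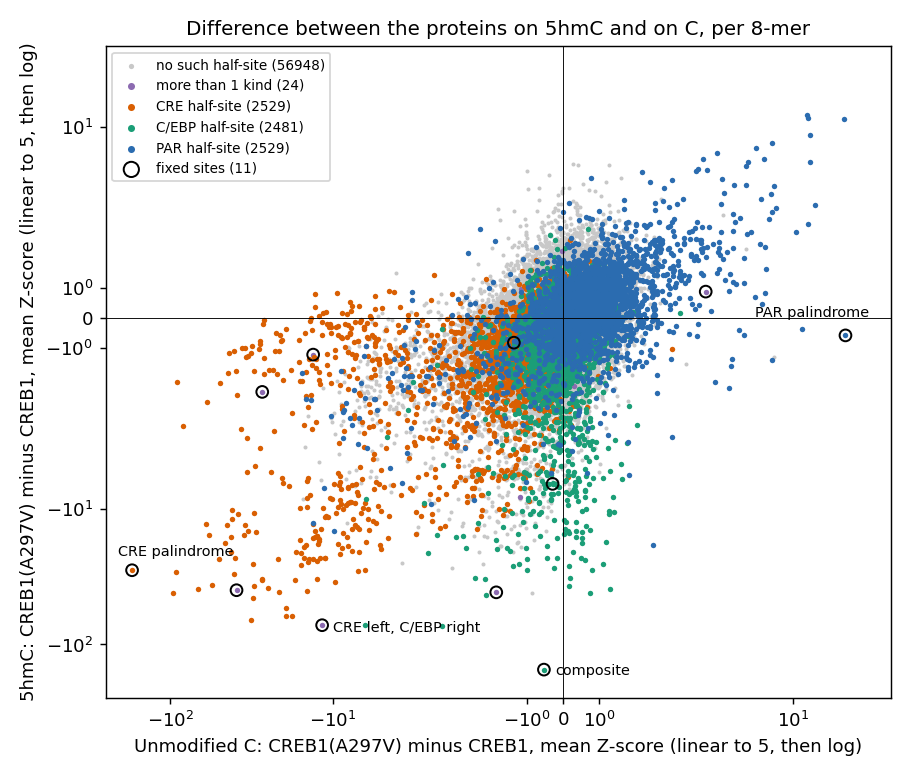
Difference in mean Z-score between CREB1(A297V) and CREB1 for each 8-mer with 8 spots or more, on unmodified C (x axis, 2 arrays each) and on 5hmC (y axis), both linear to 5 in either direction and logarithmic beyond. Points near the vertical line and far below 0 are mostly 8-mers with a C/EBP half-site, led by the composite at -0.52 on C and -153.5 on 5hmC; the CRE palindrome lies at -172 on C and -28.3 on 5hmC.

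Strand asymmetry was measured as the Z-score of an 8-mer less that of its reverse complement, over 32639 pairs. On the 5hmC arrays the members of a pair differ in where 5hmC lies. The measure also varied on unmodified C, where neither strand carried 5hmC, and the part of 5hmC in it was not tested. The SD of this asymmetry, which grows with the range of the Z-scores, was 2.50 with CREB1 on 5hmC, against 1.01 with CREB1(A297V) on 5hmC, 1.54 with CREB1 on C and 1.32 with CREB1(A297V) on C. The correlation between an 8-mer and its reverse complement was 0.184 with CREB1 on 5hmC and 0.725 on C, and 0.417 and 0.294 with CREB1(A297V). The asymmetry differed between the proteins in 2352 pairs (7.21%). gatgaCgC exceeded gCgtCatC by 65.8 and 68.9 on the CREB1 arrays and by 1.17, 3.49, 2.31 and 1.94 on those of CREB1(A297V) (difference 65.1, SE 2.94, adjusted p = 1.8e-11, limma). aCgCaata exceeded tattgCgt by 65.8 and 80.4 with CREB1, and with CREB1(A297V) the order differed between arrays. tatgaCgC exceeded gCgtCata by 54.7 and 51.0 with CREB1, against -3.32 to 1.78 with CREB1(A297V). The brighter 8-mer of each of these pairs held tgaCg or gCaa, and the dimmer one CgtCa or ttgC.

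The fixed sites formed 4 such pairs. The composite exceeded its other strand by 140 and 169 with CREB1 and by 2.70, 1.99, 0.394 and 2.65 with CREB1(A297V), but this difference of 152.7 had an SE of 149 and was not called (adjusted p = 0.59, limma). tgaCgCaa exceeded ttgCgtCa by 68.9 and 81.8 with CREB1 and by 3.69 to 5.86 with CREB1(A297V), which was called (adjusted p = 0.0061), though not without CREB1 replicate 2 (0.12 at most over the arrays left out) or with the random block (0.15). tgaCgtaa exceeded ttaCgtCa with both proteins, by 49.7 and 53.3 with CREB1 and by 12.2 to 16.8 with CREB1(A297V). ttaCgCaa exceeded ttgCgtaa by 44.6 and 41.1 with CREB1, and with CREB1(A297V) the difference ran from -3.23 to 3.49, with an order that differed between arrays (adjusted p = 0.65, not called). Of this hybrid's orientations tgaCgtaa, with 5hmC in the CRE side and none in the PAR side, was the brighter on all 6 arrays. The other orientation, ttaCgtCa, has 5hmC in the CRE side and in the PAR side. On unmodified C tgaCgtaa was the brighter too. There the mean of ttaCgtCa less tgaCgtaa was -22.6 with CREB1 and -10.7 with CREB1(A297V). The part of 5hmC in this order was not tested.

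The spot intensities of the same arrays were examined without the authors' Z-score. They are the measurement below that score, so they are not an independent test of sites chosen by it. Of 40330 spots, 8006 (19.9%) were called after centring the log2 signal of each array on its median, 4882 lower and 3124 higher. All 17 spots carrying the composite were lower, with a median difference of -4.33 on the log2 scale, which bounds its size, since spots with this site reached the ceiling of 65528 on both CREB1 arrays. Their median signal was 31419 and 44695 on the CREB1 arrays and 1761.5, 2134, 80 and 368 on those of CREB1(A297V), the last 4 close to the median spot of each array. The CRE palindrome was lower in 18 of 19 spots, tgaCgCaa in 17 of 17, ttaCgCaa in 15 of 18 and tgaCgtaa in 14 of 17. For the PAR palindrome 6 of 18 were lower and 0 higher, for ttaggtaa 7 of 18 were higher and 0 lower, and for atgtgtaa 5 of 15 were higher and 0 lower. The brightest spots of the composite and of ttaggtaa are shown as whole synthesised strands, with the 8-mer in capitals and every c or C a 5hmC.
Composite spot: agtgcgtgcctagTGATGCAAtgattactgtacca
PAR spot: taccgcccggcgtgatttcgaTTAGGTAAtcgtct
The composite spot was at 65528, the brightest value on the array, with both CREB1 arrays and at 2949, 3986, 151 and 698 with CREB1(A297V), so that its difference of -4.33 on the log2 scale is a lower bound on its size. The PAR spot was at 11406.5 and 15336.5 with CREB1 and at 36073, 44729, 2001 and 7249 with CREB1(A297V), where 2001 was the brightest spot of replicate 3. It rose by 1.54 on the log2 scale (SE 0.44, adjusted p = 0.017, limma). Its strand holds 5hmC outside the 8-mer and none within it.

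Among all spots, the 3 largest measured falls were of -5.21, -5.21 and -5.03 on the log2 scale. The first of these carries the composite and the second gatgCaa, 7 of its bases. The first was at the ceiling of 65528 on both CREB1 arrays and the second on replicate 2, so that both values are bounds and the order of such spots is not known. The 3 largest rises were of 2.64, 2.57 and 2.53. These spots were dim with CREB1, at 203 to 411, and lay near the array median with CREB1(A297V): at 1345 to 2033 on replicate 1, below the local background of each. Local background was not subtracted, and its part in these rises was not tested. With the normexp background correction, 12185 spots were called, 7307 higher and 4878 lower.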

How the data were processed

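The authors deposited a matrix of Z-scores per 8-mer and array, a score whose formula, like the scanner and image software, is not given in the sources used here. They also deposited the median intensity of each spot and of its local background, per the file headers not background-subtracted. Samples were matched to columns by the labels. Matrix names were complemented base by base to give the synthesised strand. The deposited Z-scores were fitted with limma 3.58.1 in R 4.3.3, with 1 coefficient per group over all 21 arrays, a mean-variance trend and Benjamini-Hochberg adjustment, two-sided, called at an adjusted p under 0.05. The script was tested on simulated data. Spot intensities were taken as log2 and centred on each array's median. 8-mers had a median of 17 spots, 409 had none and 1024 had fewer than 8. The number of arrays limits the precision. Named were the 11 fixed sites, the 10 largest called falls and rises whose groups did not overlap, and the 8 highest means per protein. Also named were the 5 largest interactions and asymmetries each way and 3 spots each way. All named 8-mers had 8 spots or more. Falls, rises, highest means, interactions and asymmetries skipped 8-mers sharing 7 bases in a row. tgaggCaa and tgatgtaa were named after their values were seen. The members and lists were chosen with earlier results of these data known. Alternatives were other scales, normexp with an offset of 50, recomputed Z-scores, a filter on spots, other spread models, blocks and arrays left out.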

Additional observations from a re-analysis of the deposited data

Results flagged for a closer look

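In 4 of 34 named 8-mers, 1 of the 4 CREB1(A297V) arrays stood apart from the other 3, by a gap beyond Dixon's critical share of the range; chance flags about 1 in 20 groups. The Z-score of ttgCgtCa was 0.687 on replicate 2 and between -0.391 and -0.337 on the others. That of ttgCgtaa was 9.29 on replicate 4, against 2.02 to 3.20. That of attaCaCt was 6.05 on replicate 1, against 8.93 to 9.33, and that of gtgtaatC was 9.09 on replicate 1, against 13.15 to 13.25.

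The interaction term, the difference between the proteins on 5hmC less that on C, was called for 11 named 8-mers, with array number confounded in it. It was positive for tgaCgtCa (143.7), taCgtCaC (89.2), CaCgtCat (42.2), aCgtCaga (27.4) and CgCgtCat (27.4). It was negative for tgatgCaa (-153), aCgCaata (-70.2), tgaCgCaa (-60.4), CgatgaCg (-43.5), atgCaata (-42.2) and ttatgaCg (-24.6), with adjusted p from 7.2e-05 to 0.034 over the 11 (limma).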

How the results depend on the processing

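The count of 8-mers called (5745) was 2674 with each array divided by its 1 in 1000 Z-score, 1396 in the fit of the 6 arrays alone, 9475 with recomputed Z-scores, 11659 with the replicate block, 1290 with array number as a random block, 10480 with the CREB1(A297V) arrays that share an array number and 3274 without replicates 2 and 3 of CREB1(A297V), an alternative chosen after seeing the data. It ran from 1178 to 9012 with single arrays left out. The 466 interactions were 41 on the asinh scale, 79 after the division, 1276 with the replicate block, 244 with the random block and 251 without those 2 arrays, with 214 to 685 over single arrays left out. The 2352 asymmetric pairs were 558 after the division, 897 with the 6 arrays, 4674 recomputed, 6094 with the replicate block, 571 with the random block, 1242 without those 2 arrays, and 590 to 4660 over single arrays. The 8006 spots were 12185 with normexp, 4098 without those 2 arrays, and 3711 to 8420 over single arrays. The replicate numbers do not pair the arrays: deviations of arrays with the same number correlated at 0.0386 and 0.0683, and in the replicate block fit replicates 3 and 4 of CREB1(A297V), which share a number with no other array, drop out of the difference. Over the alternatives, called differences stayed called in 358 cases and lost the call in 62, with none reversed.

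Uncalled differences that changed sign were those of the PAR palindrome, which was 1.95 after the division, 80.64 with quantile normalization, 2.25 recomputed, 25.1 with normexp, 1.04 on ranks, 2.28 with the CREB1(A297V) arrays of other array numbers, and -2.55 to 1.42 over single arrays left out, above 0 without CREB1 replicate 2 (1.41) or CREB1(A297V) replicate 1. tgaCgtaa was 1.45 with quantile normalization and 0.010 on ranks. tgaggtaa was -0.0096 on the asinh scale, -0.161 and -1.09 without CREB1(A297V) replicates 2 and 3 in turn, 2.14 at most over single arrays left out, and -2.83 without both. ttgCgtaa was -0.511 with the replicate block and with the arrays that share a number, -0.790 without replicate 4, and at most 1.63 over single arrays left out. After the division ttgCgCaa was 0.0069 and ttgCatCa 0.018. The interaction of tgaCgtCa was -1.40 on the asinh scale, and the asymmetry of ttaCgtCa and tgaCgtaa -3.81 with quantile normalization. The cause of these changes was not tested. Signal over background limits CREB1(A297V) replicates 1 to 3.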
